A study of Mus musculus with 18 samples.

Results

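Adding 0.01 µM all-trans retinoic acid (tRA) to mIMCD-3 cells treated with the aldehyde dehydrogenase inhibitor DEAB (4-diethylaminobenzaldehyde) was followed by a change in 351 of 23410 tested transcript clusters after 24 h. Of these, 184 were higher and 167 lower than with DEAB alone. The comparison was between 6 of the 18 arrays of the series, chosen by their titles. There were 3 labelled DEAB+tRA and 3 labelled DEAB, with 1 array of each kind from each of 3 biological replicates. The fit behind these counts also held the 3 arrays of vehicle-treated cells of the same experiment. A fit of the 6 arrays alone called 52 clusters higher and 19 lower. The comparison was read over all transcript clusters with a gene symbol. A transcript cluster is the set of probes on the array that covers 1 gene or a stretch of it.

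mIMCD-3 is an established line of mouse inner medullary collecting duct cells, so each group was a culture of the same line. The DEAB group received 25 µM DEAB. The DEAB+tRA group received 25 µM DEAB together with 0.01 µM tRA for the same 24 h. The vehicle group of the same experiment received 0.1% ethanol, 0.1% DMSO or both. All were kept in medium with 1% fetal calf serum. A separate experiment with its own vehicle used 1 µM AGN193109, an antagonist of the retinoic acid receptors, with and without 0.2 µM tRA. Retinoid in the cells was not measured on the arrays, so its level under DEAB is not known from them. In such bulk samples, fewer cells of one state and less RNA per cell cannot be told apart.

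Retinoic acid is the active form of vitamin A for gene control. The retinoic acid receptors (RARs) are nuclear proteins that pair with retinoid X receptors on direct repeats of a short half-site in DNA, holding corepressors while empty and coactivators once the ligand is bound. Cells supply the ligand themselves through dehydrogenases, the last of which, the Aldh1a enzymes, are the targets of DEAB. In the kidney, retinoid signalling is best known for its part in the branching of the ureteric bud, the embryonic source of the collecting duct. In skin and other lining epithelia, retinoids are known to hold back cornification. The comparison asks which transcripts respond when tRA is supplied to collecting duct cells whose own synthesis of it is inhibited.

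Promoter sequence is given first here, because Ppbp, a CXC chemokine gene and one of the largest rises, carries such a repeat. The search was made with the calls known, so its counts describe these genes only and are not separate support. The half-site was taken as AGGTCA or AGTTCA or GGGTCA or GGTTCA, and a direct repeat as any pair of these in the same orientation with 1, 2 or 5 bases between them, on either strand. The RefSeq windows (GRCm38.p6) run from 250 bases before to 50 bases after an annotated start, which for some genes lies inside the gene. The search did not extend past them. Of 15614 tested genes with a window, 11 had a repeat with the 5-base spacing (0.0704%), 14 one with the 2-base spacing (0.0897%) and 38 one with the 1-base spacing (0.243%). The sites in the windows of Ppbp (chr5:90768272-90768288, plus-strand gene), Rarb (chr14:16575513-16575529, minus-strand gene) and Cyp26a1 (chr19:37697776-37697792, plus-strand gene) had the 5-base spacing. They are shown on the gene's strand, 5′ to 3′, with both half-sites in capitals, because they set the gene with the clearest change beside a receptor gene and an enzyme gene that carry the same kind of repeat.
Ppbp: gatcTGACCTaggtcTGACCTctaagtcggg
Cyp26a1: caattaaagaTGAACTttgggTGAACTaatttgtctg
Rarb: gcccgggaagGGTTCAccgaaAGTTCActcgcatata
In Ppbp and Cyp26a1 the repeat lies on the opposite strand, so the half-sites read in reverse complement. Measured from the start used for the window, the repeats began 246 bases before it in Ppbp, 32 in Cyp26a1 and 53 in Rarb. By their full spans, the sites of Cyp26a1 (gene chr19:37697738-37701536) and Rarb (gene chr14:16430839-17082331) lie inside the gene. So does the site of Ano1 given below (gene chr7:144588549-144752026). Ppbp rose by 3.51 on the log2 scale, whereas the differences of Rarb and Cyp26a1 were 0.29 and 0.19 and did not pass the test (adjusted p = 0.19 and 0.288). Rarb and Cyp26a1 were dim, under the 30th percentile of level, and Ppbp was not. Whether level had a part in these differences was not tested. The other 8 tested genes with the 5-base spacing (Blvrb, Cfap45, Gm1043, Hbb-y, Prokr2, Prss27, Syndig1 and Tnfsf13b) were not called either, with differences from -0.17 for Prokr2 to 0.14 for Syndig1. Among the called genes with a window, 3 of 123 that rose held a repeat of any of these spacings (Ppbp, Cxcl10 and Tinagl1) and 1 of 123 that fell did (Ano1), against 63 of all 15614 (0.403%). A match of letters is a description of the window and not a binding site. The 3 sites with the shorter spacings, in Cxcl10 (chr5:92349025-92349037, minus-strand gene), Tinagl1 (chr4:130175216-130175229, minus-strand gene) and Ano1 (chr7:144738632-144738645, minus-strand gene), are shown in the same way to complete the called genes.
Cxcl10: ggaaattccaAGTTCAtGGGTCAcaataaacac
Tinagl1: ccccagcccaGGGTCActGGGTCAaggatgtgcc
Ano1: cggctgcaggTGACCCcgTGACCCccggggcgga

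The values are log2 levels normalised by the authors with the Robust Multichip Average (RMA), so that a difference of 1 is a 2-fold change. A level compares the same cluster between arrays and not one gene with another. Medians of the 9 arrays of the DEAB experiment lay between 7.48 and 7.51, and Pearson correlations between arrays between 0.993 and 0.9962. Replicate 1 was lower than the others for some genes, among them Akr1c19 and Slc16a12. Cdh1, the epithelial E-cadherin, had levels of 12.85, 12.93 and 12.88 with DEAB and 12.83, 12.84 and 12.88 with DEAB+tRA, among the brightest clusters of the array. Aqp2, the water channel that defines principal cells, was near the middle of all clusters, at 8.01, 8.21 and 7.86 with DEAB and 8.31, 8.04 and 8.04 with DEAB+tRA. No detection p-values were used, so presence or absence of Aqp2 RNA is not claimed. Of 28 measured markers of other kidney and blood cells, Acta2 alone was called (3.57%). The mean level over the 28 lay between 6.948 and 7.018 on the DEAB arrays and between 7.004 and 7.162 on the DEAB+tRA arrays. The part of this shift in the results was not tested.

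With the replicates blocked in the model, 184 clusters (0.786%) were called higher and 167 (0.713%) lower, 1.5% of all tested, at an adjusted p under 0.05 (limma, Benjamini-Hochberg over 23410 clusters). The rises were larger than the falls. Of the 184 rises, 22 were at least 2-fold and 67 at least 1.5-fold, with a median log2 difference of 0.47. Of the 167 falls, 4 were at least 2-fold and 19 at least 1.5-fold, with a median of -0.37. All 184 and all 167 changed in the same direction in each of the 3 replicate pairs. The blocked fit selects clusters for such agreement, so it describes the called clusters and is not separate support for them. The 3 DEAB+tRA values did not overlap the 3 DEAB values for 151 of the rises and 121 of the falls, against 9.21% of all tested clusters. The median difference of all tested clusters was 0.006. Fewer clusters were called without the block: 44 were higher and 32 lower, all of them among the 184 and 167. In a fit of the 6 arrays alone, with the block, 52 were higher and 19 lower.

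**Figure D1:**
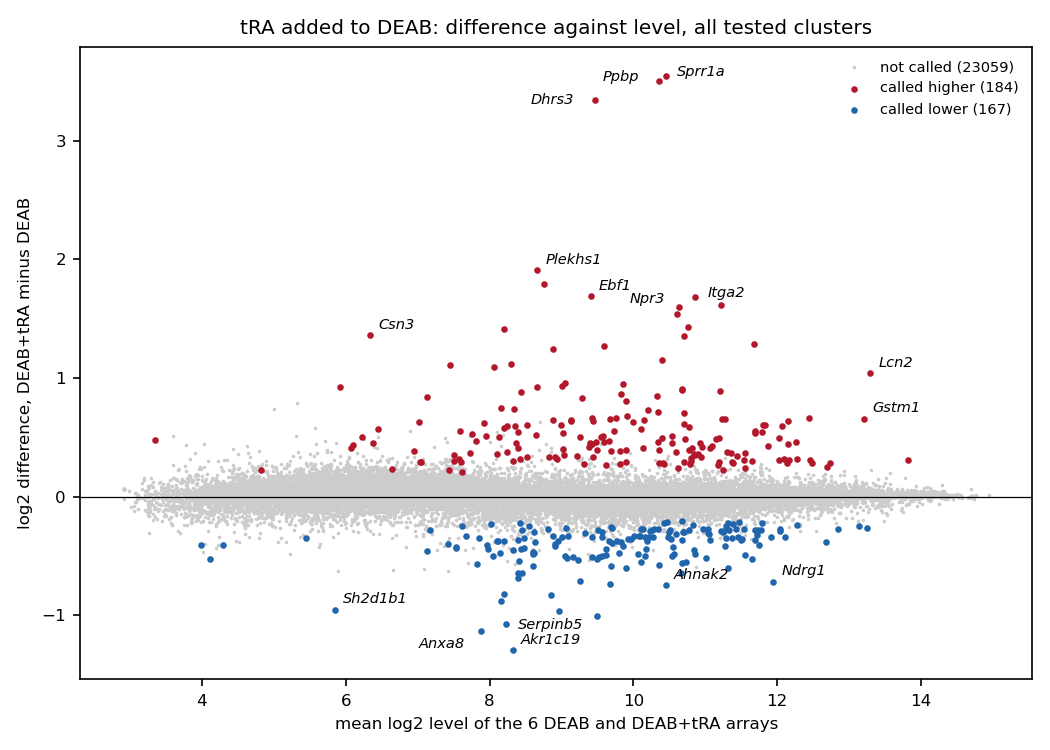
Log2 difference, DEAB+tRA minus DEAB, against the mean log2 level of the 6 arrays for each tested cluster. Grey points are clusters not called, red points the 184 called higher and blue points the 167 called lower; the 3 points above 3 are Sprr1a, Ppbp and Dhrs3.

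Sprr1a, Ppbp and Dhrs3 stood apart from all other genes, each rising more than 10-fold. Sprr1a (chr3:92483954-92485881) encodes a small proline-rich protein that is cross-linked into the cornified envelope of squamous cells. Its level was 8.87, 8.81 and 8.36 with DEAB in replicates 1, 2 and 3, and 12.74, 12.08 and 11.87 with DEAB+tRA. Every DEAB+tRA array was higher than every DEAB array. The rise was 3.55 on the log2 scale, or 11.7-fold (SE 0.11, adjusted p = 2.09e-05, 95% interval 3.30 to 3.80).

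Ppbp (chr5:90768518-90770063), which encodes a CXC chemokine known from platelets, read 8.89, 8.45 and 8.46 with DEAB and 12.51, 12.04 and 11.76 with DEAB+tRA. The 3 pairs were alike, and the groups lay far apart. It rose by 3.51, or 11.4-fold (SE 0.067, adjusted p = 3.96e-06), the smallest adjusted p of all tested clusters.

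Dhrs3 (chr4:144892534-144928209) encodes an enzyme that reduces retinaldehyde back to retinol. It read 7.66, 7.89 and 7.83 with DEAB and 9.99, 11.56 and 11.86 with DEAB+tRA. The DEAB values were close together, but the DEAB+tRA value of replicate 1 was lower than the other two, as was the vehicle value of replicate 1 (8.86, against 10.66 and 10.83). The rise was 3.35 (SE 0.33, adjusted p = 0.00495), with 2.33 in replicate 1, 3.67 in replicate 2 and 4.03 in replicate 3. This call ended without the block (adjusted p = 0.0726), in the fit of the 6 arrays (adjusted p = 0.0779), without replicate 2 (adjusted p = 0.138) and without replicate 3 (adjusted p = 0.146). The difference was 3.00 to 3.88 when 1 array or 1 replicate number was left out.

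**Figure D2:**
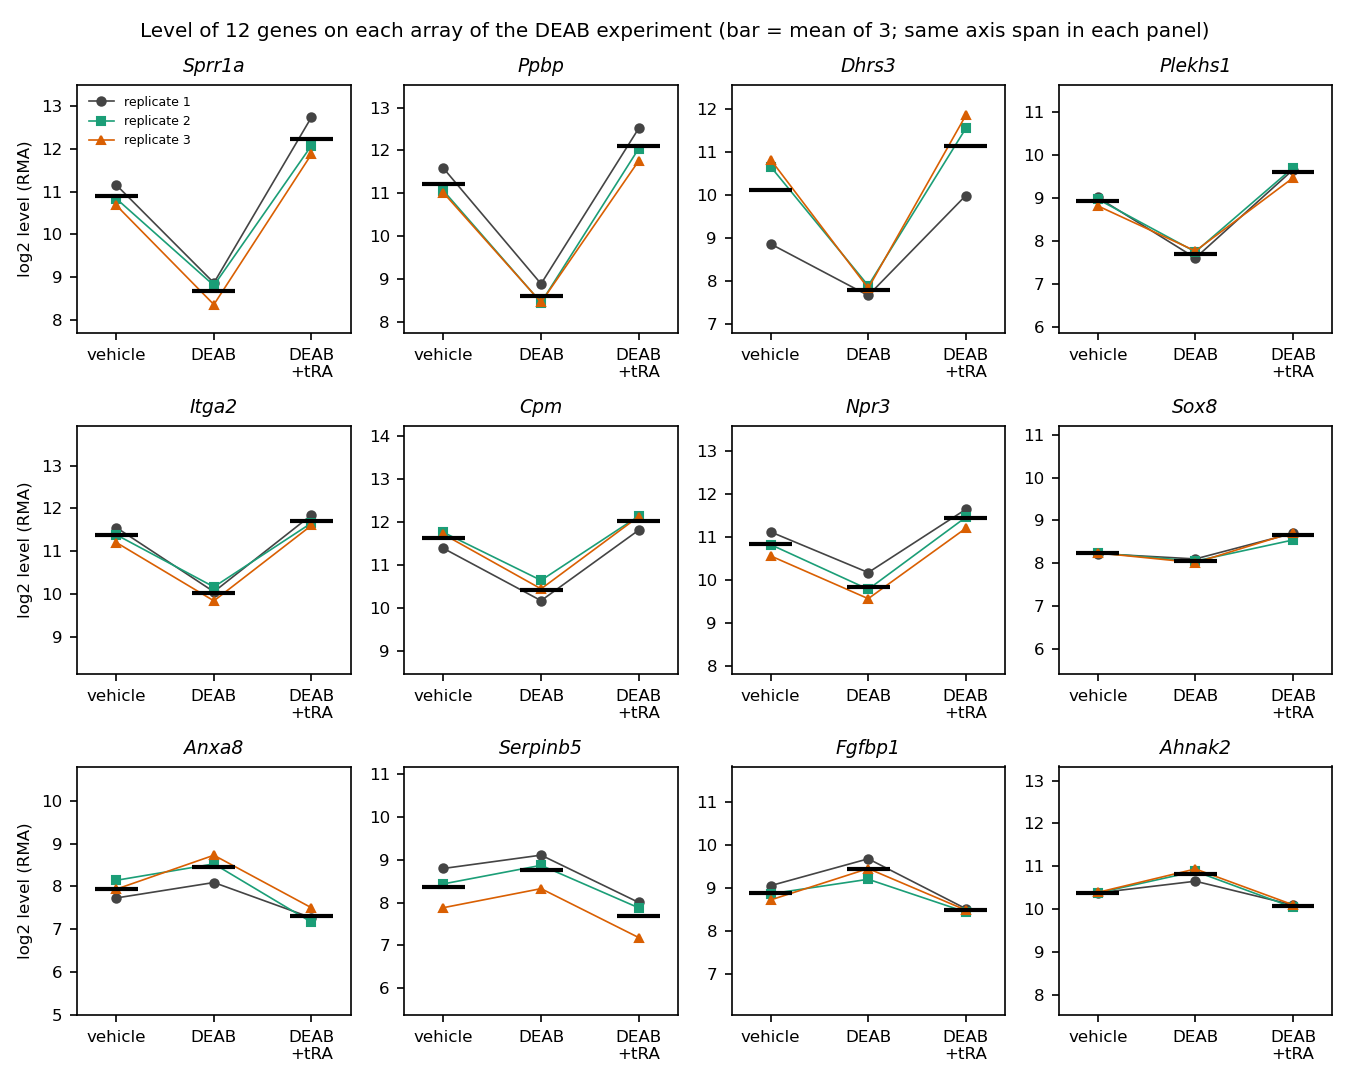
Log2 level (RMA) of 12 genes on each of the 9 arrays of the DEAB experiment, as vehicle, DEAB and DEAB+tRA, with symbols and lines for the 3 replicates and a bar for the mean of 3; each panel spans the same number of log2 units. For Sprr1a, Ppbp and Dhrs3 the DEAB+tRA arrays sit at 9.99 to 12.74 and the DEAB arrays at 7.66 to 8.89, while Anxa8, Serpinb5, Fgfbp1 and Ahnak2 are lower with DEAB+tRA.

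A further 12 genes completed the 15 largest rises, which were taken only from called genes whose groups did not overlap. They included surface and adhesion proteins, channels and a transcription factor. Plekhs1, a gene with a pleckstrin homology domain, rose from 7.60, 7.74 and 7.76 to 9.66, 9.71 and 9.47, a difference of 1.91 (SE 0.074, adjusted p = 8.61e-05). Itga2, the integrin chain that pairs with beta-1 to bind collagen, read 10.05, 10.17 and 9.84 with DEAB and 11.85, 11.66 and 11.60 with DEAB+tRA, a rise of 1.68 (SE 0.067, adjusted p = 8.84e-05). Cpm, a carboxypeptidase anchored in the cell membrane, went from 10.17, 10.64 and 10.44 to 11.81, 12.14 and 12.13 and rose by 1.61 (SE 0.047, adjusted p = 2.09e-05). In each of these the lowest DEAB+tRA array was more than 1 unit above the highest DEAB array.

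Npr3, the clearance receptor that removes natriuretic peptides, read 10.17, 9.78 and 9.56 with DEAB and 11.65, 11.46 and 11.21 with DEAB+tRA. The replicates differed by a like amount in both groups, and the rise was 1.60 (SE 0.049, adjusted p = 2.09e-05). Ebf1, a transcription factor known from B-cell development, read 9.03, 8.54 and 8.11 with DEAB and 10.69, 10.26 and 9.79 with DEAB+tRA, with the same offset between replicates in both groups. It rose by 1.69 (SE 0.047, adjusted p = 2.09e-05). Clca3b, of the family of chloride channel accessory proteins, read 8.28, 7.67 and 7.62 with DEAB and 10.46, 9.54 and 8.93 with DEAB+tRA and rose by 1.79 (SE 0.15, adjusted p = 0.00205). Gabrp, the pi subunit of the GABA-A receptor chloride channel, read 7.11, 7.62 and 7.74 with DEAB and 8.40, 9.05 and 9.25 with DEAB+tRA. It rose by 1.41 (SE 0.061, adjusted p = 1.33e-04). The calls of Ebf1, Clca3b and Gabrp ended without the replicate block (adjusted p = 0.119, 0.24 and 0.0739).

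Tns1 encodes tensin 1, which links integrins to actin, and had 6 clusters on the array. The brightest read 10.55, 11.24 and 11.33 with DEAB and 11.78, 12.56 and 12.63 with DEAB+tRA, a rise of 1.28 (SE 0.0398, adjusted p = 2.09e-05). Of the other five, 4 were also called higher, by 1.15 to 1.54, and the dimmest was not (0.17, adjusted p = 0.6475). Sorcs2, a sortilin-family receptor, rose by 1.27 (SE 0.054, adjusted p = 1.31e-04). Muc20, a membrane mucin, rose by 1.24 (SE 0.10, adjusted p = 0.00214). Csn3, the gene of kappa-casein, rose by 1.36 (SE 0.0797, adjusted p = 4.66e-04), though its levels were low, at 5.86, 5.50 and 5.61 with DEAB and 7.39, 6.91 and 6.74 with DEAB+tRA. Klhdc7a, a kelch-domain gene, rose by 1.12 (SE 0.064, adjusted p = 4.48e-04). Without the block 8 of the 15 were called: Cpm, Csn3, Itga2, Npr3, Plekhs1, Ppbp, Sorcs2 and Sprr1a. All of these but Csn3, which ended without replicate 2, were called in every alternative fit run.

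The largest falls were smaller than the largest rises, and several were of genes known from squamous and stratified epithelium. Anxa8, a calcium-dependent phospholipid-binding annexin, read 8.09, 8.52 and 8.73 with DEAB and 7.27, 7.16 and 7.4999 with DEAB+tRA. All 3 DEAB+tRA arrays were below all 3 DEAB arrays. It fell by 1.14, or 2.2-fold (SE 0.12, adjusted p = 0.00734). Serpinb5, which encodes maspin, read 9.11, 8.87 and 8.32 with DEAB and 8.00, 7.88 and 7.18 with DEAB+tRA. Replicate 3 was the lowest in both groups, and the fall was 1.08 (SE 0.053, adjusted p = 2.28e-04).

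Fgfbp1, a secreted carrier of fibroblast growth factors, read 9.68, 9.20 and 9.45 with DEAB and 8.52, 8.44 and 8.48 with DEAB+tRA, where the 3 arrays were within 0.1 of each other. It fell by 0.97 (SE 0.088, adjusted p = 0.00327). Gsdma, a gasdermin of skin, fell by 0.88 (SE 0.079, adjusted p = 0.0031), and Casp14, the caspase of cornifying keratinocytes, by 0.60 (SE 0.058, adjusted p = 0.00424). Pkp1, the desmosome protein plakophilin 1, fell by 0.58 (SE 0.0696, adjusted p = 0.0108). Ndrg1, a gene known for its response to hypoxia, read 12.31, 12.26 and 12.32 with DEAB and 11.50, 11.54 and 11.72 with DEAB+tRA and fell by 0.72 (SE 0.057, adjusted p = 0.00188). Ahnak2, which encodes a very large scaffold protein, read 10.65, 10.88 and 10.94 with DEAB and 10.10, 10.04 and 10.10 with DEAB+tRA. It fell by 0.74 (SE 0.066, adjusted p = 0.00293), and its other, dimmer cluster fell by 1.01.

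The other falls of this group were those of Gper1, a G protein-coupled estrogen receptor (-0.82, SE 0.061, adjusted p = 0.00145), Ctsw, a cathepsin known from cytotoxic lymphocytes (-0.83, SE 0.0699, adjusted p = 0.00236), and Trpa1, an irritant-gated cation channel (-0.71, SE 0.053, adjusted p = 0.00145). Blnk, a B-cell adaptor protein, had -0.74 (SE 0.11, adjusted p = 0.0231), the imprinted gene Peg10 -0.65 (SE 0.082, adjusted p = 0.0139), and Pdk4, a kinase that inhibits pyruvate dehydrogenase, -0.65 (SE 0.075, adjusted p = 0.00917). Sh2d1b1, an adaptor of lymphoid cells, was at 6.23, 6.31 and 6.43 with DEAB and 5.76, 5.06 and 5.29 with DEAB+tRA, levels under the 30th percentile of all clusters, and had -0.95 (SE 0.17, adjusted p = 0.0462). Without the block 8 of these 15 falls were called: Ahnak2, Anxa8, Casp14, Fgfbp1, Gsdma, Ndrg1, Pdk4 and Trpa1. Over the alternative fits, Sh2d1b1 kept its call in 5 of 20 and Blnk in 8 of 21, the lowest shares of these 15. Leaving out a whole replicate number left 2 to 4 falls called among all clusters.

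The largest fall of all, chosen here after its values were seen because its groups overlapped, was that of Akr1c19, an aldo-keto reductase. It read 8.14, 9.31 and 9.47 with DEAB and 6.29, 8.14 and 8.59 with DEAB+tRA. Replicate 1 was the lowest in both groups, and within each pair the DEAB+tRA array was lower, by 1.85, 1.17 and 0.87. The fall was 1.30 (SE 0.18, adjusted p = 0.0189), and the call ended without the replicate block (adjusted p = 0.82). Edn1, Ptgs2 and Wnt9a were also chosen after their values were seen, and of these Wnt9a was called without the block. Edn1, the gene of endothelin 1, which acts on sodium and water handling in the collecting duct, rose by 0.92 (SE 0.14, adjusted p = 0.024), from 8.13, 8.30 and 8.14 to 9.55, 9.01 and 8.79. Ptgs2, the inducible cyclooxygenase, fell by 0.60 (SE 0.047, adjusted p = 0.0017), from 12.05, 11.47 and 11.35 to 11.49, 10.91 and 10.65. Its groups overlapped, and it fell in each pair. Wnt9a, a secreted Wnt ligand, rose by 0.95 (SE 0.055, adjusted p = 4.59e-04).

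**Figure D3:**
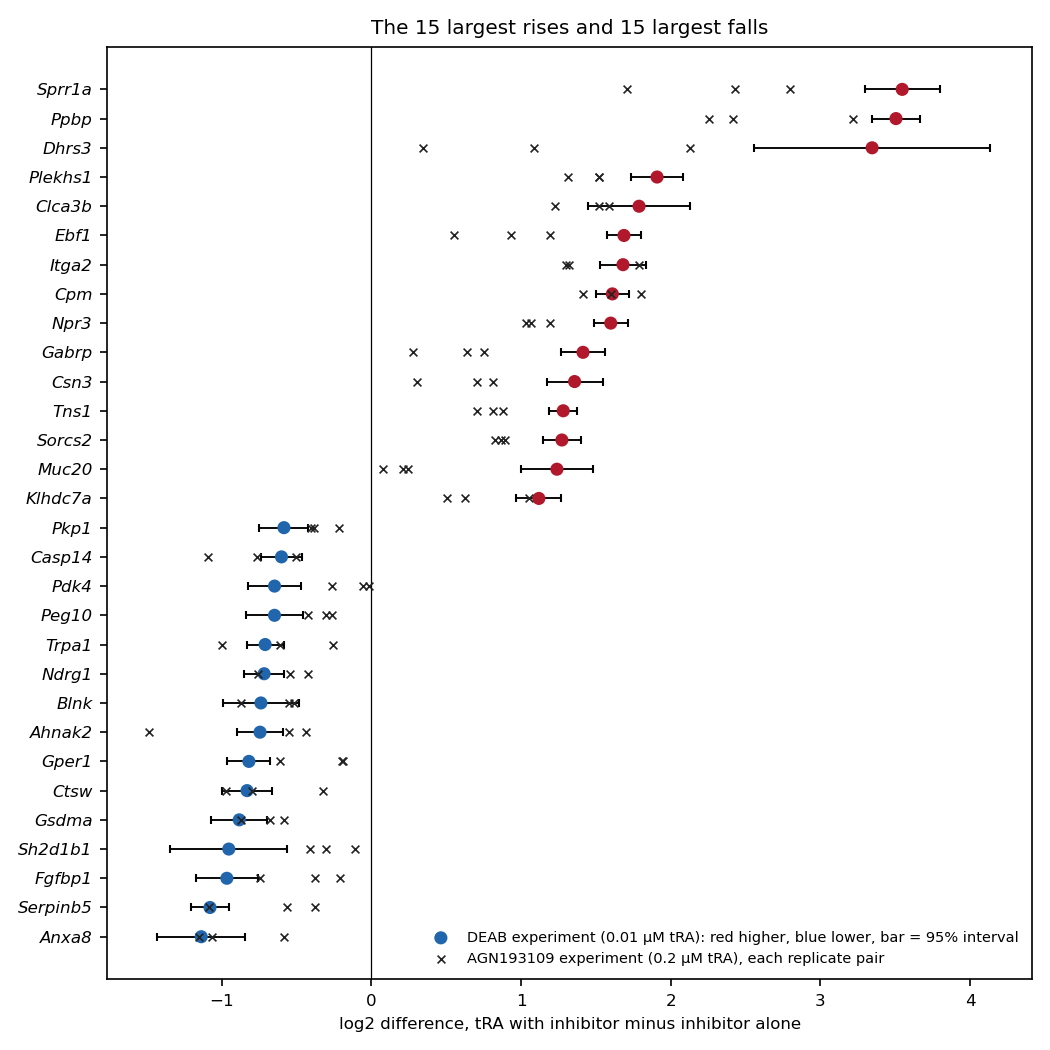
Log2 difference between tRA with inhibitor and inhibitor alone for the 15 largest rises and 15 largest falls with groups that did not overlap. Circles with 95% intervals are the DEAB experiment (0.01 µM tRA) and crosses the 3 replicate pairs of the AGN193109 experiment (0.2 µM tRA); rises reach 3.55 for Sprr1a and falls -1.14 for Anxa8.

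Among the genes of the retinoid pathway itself, Dhrs3 and Stra6 rose. Dhrs3 was the 1 gene called of 27 measured retinol and retinaldehyde oxidoreductases (3.7%, against 1.5% of all clusters). Of 18 measured retinoid receptors, carriers and Cyp26 enzymes, 1 rose and none fell (5.56% called). This was Stra6, the membrane receptor that takes up retinol from its plasma carrier, which read 8.16, 8.79 and 8.70 with DEAB and 9.25, 9.48 and 9.70 with DEAB+tRA. The groups did not overlap, and the rise was 0.93 (SE 0.076, adjusted p = 0.00214), a call that ended without the block. Rarb, the receptor gene with the repeat shown above, read 6.44, 6.20 and 6.23 with DEAB and 6.56, 6.48 and 6.71 with DEAB+tRA, and its difference of 0.29 did not pass the test, although the groups did not overlap. The Cyp26 genes, whose products break down tRA, had small differences that did not pass, 0.19 (adjusted p = 0.288) for Cyp26a1 and 0.20 (adjusted p = 0.183) for Cyp26b1.

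Rara and Rarg, the other receptor genes, had levels near 10 in both groups, with differences of -0.059 (adjusted p = 0.709) and -0.048 (adjusted p = 0.735). Of 20 measured aldehyde dehydrogenases, the family DEAB inhibits, none rose and 1 fell (5% called, against 1.5% of all clusters). This was Aldh3b1, by 0.28 (SE 0.043, adjusted p = 0.0291). Its groups overlapped, and its call ended without the block and was kept in 5 of 21 alternative fits. Aldh1a2 read 10.05, 10.20 and 10.27 with DEAB and 10.17, 10.10 and 10.28 with DEAB+tRA, a difference of 0.0093 (adjusted p = 0.972). Aldh1a1 and Aldh1a3 had differences of 0.11 (adjusted p = 0.557) and -0.033 (adjusted p = 0.907). Of 18 corepressors and coactivators of the RARs, none was called, and the one with the smallest p was Kat2b, at -0.21 (adjusted p = 0.124).

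Of 31 measured genes known from other cells to be induced by retinoic acid, 4 rose and 1 fell (16.1% called, against 1.5% of all clusters), with a list median of 0.032. Beside Dhrs3 and Stra6, the rises were Tgm2, the tissue transglutaminase, by 0.68 (SE 0.057, adjusted p = 0.00236), and Bhlhe40, a circadian repressor, by 0.22 (SE 0.039, adjusted p = 0.0468). Tgm2 read 9.28, 9.67 and 9.78 with DEAB and 9.94, 10.27 and 10.55 with DEAB+tRA, without overlap. The fall was that of Hoxa5, a homeobox gene, by 0.31 (SE 0.045, adjusted p = 0.0222). None of the 5 was called without the block. The list was drawn up with earlier results of these arrays known, as were all lists here, so its counts describe these samples only.

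Among these lists, all drawn up with earlier results known, squamous differentiation had the most falls. Of 44 measured genes, 8 fell and 1 rose, a share called of 20.5% against 1.5% of all clusters. The rise was Sprr1a. The falls were Anxa8, Gsdma, Casp14 and Pkp1, given above, and Sbsn (-0.37), Tgm1 (-0.37), Grhl3 (-0.47) and Krt80 (-0.28). Tgm1, the transglutaminase that builds the cornified envelope, read 10.88, 10.89 and 10.80 with DEAB and 10.43, 10.60 and 10.44 with DEAB+tRA. Grhl3, a transcription factor of the epidermal barrier, read 8.80, 8.80 and 8.90 with DEAB and 8.46, 8.37 and 8.27 with DEAB+tRA. Neither overlapped between groups. Sprr1b, a member of the same gene family as Sprr1a, had a difference of 0.55 that did not pass the test (adjusted p = 0.0705). Without the block 5 of the 9 were called: Sprr1a, Anxa8, Casp14, Grhl3 and Gsdma. The other 35 genes of the list were not called, the list median was -0.063, and 17 of the 44 were under the 30th percentile of level.

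**Figure D4:**
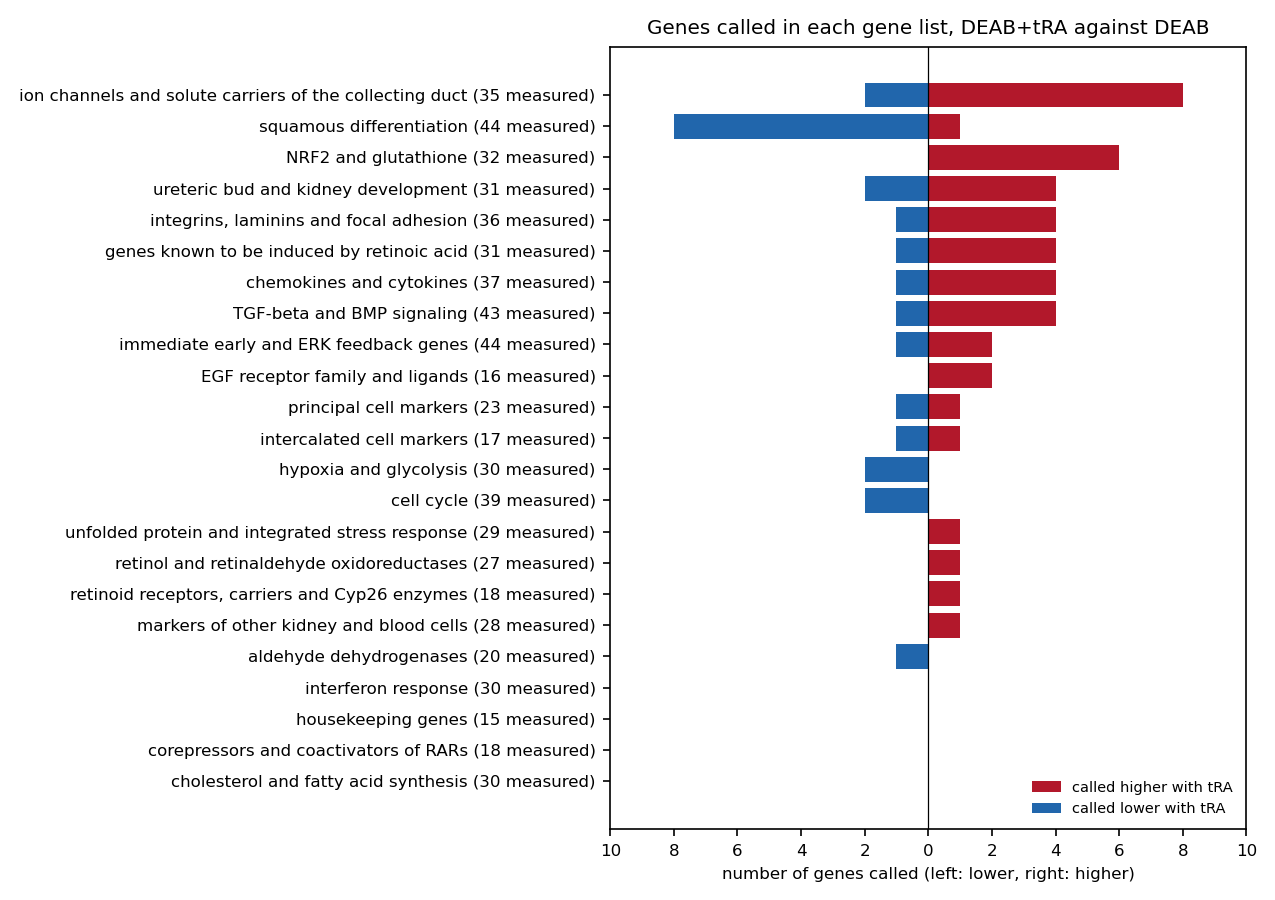
Number of genes called in each of 23 gene lists, DEAB+tRA against DEAB, with the number measured beside each name; blue bars to the left count genes lower with tRA and red bars to the right genes higher. Squamous differentiation has 8 lower and 1 higher, and ion channels and solute carriers 2 lower and 8 higher.

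Ion channels, receptors and solute carriers of the collecting duct had the highest share called, 10 of 35 (28.6%, against 1.5% of all clusters), with 8 rises and 2 falls. Npr3, Clca3b and Gabrp are described above. Slc4a4, the sodium bicarbonate cotransporter, read 9.90, 9.83 and 9.79 with DEAB and 10.71, 10.54 and 10.47 with DEAB+tRA, a rise of 0.73 (SE 0.046, adjusted p = 6.61e-04). P2ry1, a purinergic receptor for ADP, read 7.72, 7.77 and 7.89 with DEAB and 8.39, 8.48 and 8.74 with DEAB+tRA and rose by 0.74 (SE 0.056, adjusted p = 0.0015). Slc37a1, a sugar-phosphate exchanger, rose by 0.83, Kcnk5, an acid-sensitive potassium channel, by 0.39, and Slc16a12, a monocarboxylate transporter, by 1.09. Slc16a12 differed widely between replicates, at 6.46, 7.75 and 8.34 with DEAB and 7.35, 8.70 and 9.79 with DEAB+tRA, so that the groups overlapped. The falls were Slc5a3, the myo-inositol cotransporter, by 0.34, and Slc26a11, a sulphate transporter, by 0.25. Without the block 3 of the 10 were called, Npr3, Slc4a4 and Kcnk5.

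Of 23 principal cell markers, 1 rose and 1 fell (8.7% called, against 1.5% of all clusters). Nr3c2, the mineralocorticoid receptor, rose by 0.52 (SE 0.056, adjusted p = 0.00616), and Cdh16, the kidney-specific cadherin, fell by 0.52 (SE 0.074, adjusted p = 0.0221). The groups overlapped in both. Of 17 intercalated cell markers, 1 rose and 1 fell (11.8% called). Car2, the cytosolic carbonic anhydrase, rose by 0.34 (SE 0.059, adjusted p = 0.0447). Atp6v0a4, a subunit of the proton pump, read 8.10, 8.16 and 8.05 with DEAB and 7.56, 7.52 and 7.53 with DEAB+tRA, and fell by 0.57 (SE 0.041, adjusted p = 0.00133). Its 3 DEAB+tRA arrays lay within 0.1 of each other, and it was the only one of these 4 genes called without the block.

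Of 31 genes of the ureteric bud and kidney development, 4 rose and 2 fell (19.4% called, against 1.5% of all clusters). Sox8, a transcription factor that acts with Sox9 in bud branching, read 8.10, 8.05 and 8.01 with DEAB and 8.70, 8.54 and 8.72 with DEAB+tRA and rose by 0.60 (SE 0.052, adjusted p = 0.00278). Sox9 rose by 0.49 (SE 0.039, adjusted p = 0.00188), though its groups overlapped. Jag1, a Notch ligand, rose by 0.65 (SE 0.049, adjusted p = 0.00145), whereas Notch1 fell by 0.56 (SE 0.058, adjusted p = 0.00561). Bmp7, a growth factor needed for nephron progenitors, rose by 0.60 (SE 0.061, adjusted p = 0.0053). Eya1, a cofactor needed for kidney formation, fell by 0.41 (SE 0.061, adjusted p = 0.0233). Of these 6, Sox8 and Eya1 were called without the block. Over the 21 alternative fits, Sox8 kept its call in 17 and Eya1 in 8.

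Bmp7 also belongs to the list of TGF-beta and BMP signalling, in which 4 of 43 rose and 1 fell (11.6% called, against 1.5% of all clusters). Tgfb2 is one of the 3 TGF-beta ligands, and it read 9.48, 9.04 and 8.85 with DEAB and 10.11, 9.65 and 9.54 with DEAB+tRA, a rise of 0.64 (SE 0.0399, adjusted p = 6.61e-04). Smad3, which carries the TGF-beta signal to the nucleus, read 11.60, 11.45 and 11.45 with DEAB and 12.18, 12.09 and 12.04 with DEAB+tRA and rose by 0.60 (SE 0.038, adjusted p = 6.61e-04). Id2, a BMP target that blocks helix-loop-helix factors, rose by 0.49 (SE 0.0602, adjusted p = 0.0118). The coreceptor Tgfbr3 fell by 0.54 (SE 0.067, adjusted p = 0.0126). Of these 5, Smad3 was called without the block.

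All genes called in the list of NRF2 targets and glutathione enzymes rose, 6 of 32 measured (18.8%, against 0.786% of all clusters called higher). Of these, 5 are glutathione transferases of the mu class, which join glutathione to reactive compounds: Gstm1 (0.66), Gstm2 (0.60), Gstm3 (0.70), Gstm4 (0.63) and Gstm6 (0.93). These genes lie next to each other on chromosome 3 and are similar in sequence, so probes may have read more than one of them. A dimmer cluster of Gstm3 was not called (0.51, adjusted p = 0.0895), and Gstm6 was dim, at percentile 18.8 of level. Gstm1 read 12.57, 12.94 and 13.11 with DEAB and 13.36, 13.57 and 13.66 with DEAB+tRA. Gsr, the glutathione reductase, which is not of that family, read 12.06, 12.07 and 12.18 with DEAB and 12.70, 12.77 and 12.83 with DEAB+tRA and rose by 0.66 (SE 0.038, adjusted p = 4.48e-04). The list median was 0.0047, and the NRF2 targets Nqo1 (-0.30, adjusted p = 0.174) and Gclc (-0.17, adjusted p = 0.126), looked up after their values were seen, were not called. Of the 6 rises, that of Gsr was called without the block.

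Of 36 integrins, laminins and focal adhesion genes, 4 rose and 1 fell (13.9% called, against 1.5% of all clusters). After Itga2 and Tns1 the changes were small, at 0.39 for Itgb2, the beta-2 integrin chain, 0.28 for Itgb8 and -0.34 for Lama3, a laminin alpha chain. Without the block Itga2, Itgb2 and Lama3 were called. Over the 21 alternative fits, Itga2 kept its call in 21, Lama3 in 13 and Itgb2 in 10. Of 37 measured genes in the list of chemokines and cytokines, which also held the lipocalin gene Lcn2, 4 rose and 1 fell (13.5% called). Lcn2, the iron-carrying lipocalin known as a marker of tubular injury, read 12.15, 13.14 and 13.04 with DEAB and 13.52, 13.91 and 14.01 with DEAB+tRA, and rose by 1.04 (SE 0.11, adjusted p = 0.00543). Cxcl10, the interferon-inducible chemokine, rose by 0.54 (SE 0.0397, adjusted p = 0.00144), and Il34, a ligand of the receptor for macrophage colony-stimulating factor, by 0.39 (SE 0.055, adjusted p = 0.0206). Cx3cl1, the gene of fractalkine, fell by 0.38 (SE 0.054, adjusted p = 0.0222). Without the block Ppbp alone was called in this list. Among 30 interferon response genes none was called, and the one with the smallest p was Ddx58, at -0.19 (adjusted p = 0.19).

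Of 16 genes of the EGF receptor family, 2 rose and none fell (12.5% called, against 1.5% of all clusters). Nrg1, the ligand neuregulin 1, rose by 0.62 (SE 0.046, adjusted p = 0.00145) and Egfr by 0.25 (SE 0.035, adjusted p = 0.0206), and both were called without the block. Over the 21 alternative fits, Nrg1 kept its call in 18 and Egfr in 8. Of 44 immediate early and ERK feedback genes, 2 rose and 1 fell (6.82% called). Dusp1, a phosphatase that switches off MAP kinases, rose by 0.64 (SE 0.041, adjusted p = 7.17e-04), and its groups overlapped. Atf3, a stress-induced factor that is also in the list of unfolded protein response genes (1 rise in 29 measured, 3.45%), rose by 0.39 (SE 0.039, adjusted p = 0.00495), and the orphan receptor Nr4a1 fell by 0.38 (SE 0.061, adjusted p = 0.0335). None of these 3 was called without the block. The feedback inhibitors of ERK had negative differences that did not pass the test, -0.43 (adjusted p = 0.074) for Spry4 and -0.36 (adjusted p = 0.0887) for Dusp6.

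In the remaining lists, Ndrg1 alone was called without the block. Of 39 cell cycle genes none rose and 2 fell (5.13% called, against 1.5% of all clusters), both inhibitors of cyclin-dependent kinases: Cdkn2b by 0.30 (SE 0.046, adjusted p = 0.0292) and Cdkn1b by 0.27 (SE 0.048, adjusted p = 0.0478). A dimmer cluster of Cdkn1b had -0.45 and was not called (adjusted p = 0.1485). Of 30 hypoxia and glycolysis genes none rose and 2 fell (6.67% called), Ndrg1 and the mitophagy gene Bnip3 (-0.50, SE 0.051, adjusted p = 0.0053). A dimmer cluster of Bnip3 had -0.35 and was not called (adjusted p = 0.1165). The 30 genes of cholesterol and fatty acid synthesis gave no call, with a list median of -0.072 and Scd1, a stearoyl-CoA desaturase, at -0.22 (adjusted p = 0.135). The 15 housekeeping genes gave none either, with Hprt at 0.18 (adjusted p = 0.17) and a list median of 0.01. Acta2, smooth muscle actin, the marker called among other cell types, rose by 0.58 (SE 0.048, adjusted p = 0.00236), with overlapping groups.

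The vehicle arrays place these levels beside those of cells without the inhibitor. The comparisons share arrays, so their values stand side by side and are not set against each other as tests. DEAB against vehicle called 71 clusters (0.303%), 5 higher and 66 lower. DEAB+tRA against vehicle called 5 (0.0214%), with 2595 at an unadjusted p under 0.05. Of these 5, Sprr1a, Ppbp, Npr3 and Gabrp were higher with DEAB+tRA than with vehicle and Serpinb5 was lower. Sprr1a read 11.16, 10.84 and 10.68 with vehicle, between the other groups, and differed from vehicle by 1.34 with DEAB+tRA (adjusted p = 0.026) and by -2.21 with DEAB (adjusted p = 4.54e-04).

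Ppbp read 11.58, 11.06 and 11.01 with vehicle, with differences of 0.89 for DEAB+tRA and -2.62 for DEAB. Npr3 read 11.12, 10.82 and 10.56, with 0.60 and -0.996, and Gabrp 7.89, 8.29 and 8.46, with 0.69 and -0.73. Serpinb5, at 8.79, 8.43 and 7.88 with vehicle, had -0.68 for DEAB+tRA and 0.40 for DEAB. In all of these 5 genes the vehicle mean lay between the means of the DEAB and DEAB+tRA arrays. For other rises the vehicle level was close to that with DEAB+tRA: Klhdc7a, at 8.43, 9.13 and 8.89 with vehicle, differed by 0.041 with DEAB+tRA, and Muc20 by 0.12. For Sox8 and Blnk the vehicle level was nearer to that with DEAB, which differed from vehicle by -0.18 and 0.16, neither past the test.

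The AGN193109 experiment measured the effect of tRA on other arrays, with another inhibitor and a higher concentration of tRA. AGN193109+tRA against AGN193109 called 19 clusters (0.0812%), 18 higher and 1 lower. Of its 18 rises, 17 (94.4%) were also among the 184 rises with DEAB+tRA, of which they made up 9.24%. These were Clca3b, Cpm, Cpn1, Gstm1, Il34, Itga2, Jag1, Lcn2, Npr3, Plekhs1, Ppbp, Psca, Sorcs2, Sprr1a, Wnt9a and a pair of Tns1 clusters. The 1 fall was Akr1c19, which read 8.55, 6.88 and 8.88 with AGN193109 and 7.12, 6.14 and 7.35 with AGN193109+tRA. Cpn1, a plasma carboxypeptidase subunit, rose by 1.11 with DEAB+tRA and by 0.70 in the AGN193109 experiment, and Psca, a small surface antigen of the prostate and urothelium, by 0.62 and 0.61.

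Most clusters called with DEAB+tRA had the same sign on the AGN193109 arrays. This was so for 174 of the 184 rises and 163 of the 167 falls, whereas 10334 of all 23410 tested clusters had a positive and 13074 a negative difference there. The median difference in the AGN193109 experiment was 0.31 over the 184 rises and -0.29 over the 167 falls, against -0.013 over all tested clusters. The 3 AGN193109+tRA values were all above the 3 AGN193109 values for 80 of the 184 rises (1.28% of all clusters) and all below for 60 of the 167 falls (2.87% of all clusters).

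**Figure D5:**
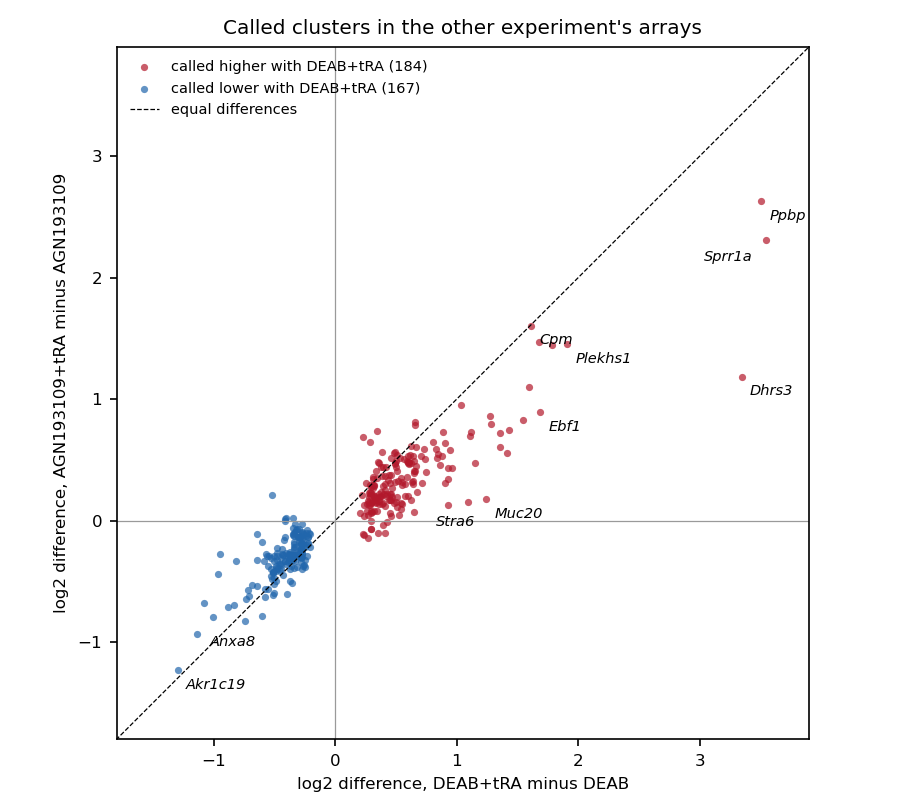
Log2 difference of each of the 351 clusters called in the DEAB experiment (horizontal axis) against its difference between AGN193109+tRA and AGN193109 on separate arrays (vertical axis). Red points are the 184 rises, blue points the 167 falls, and the dashed line marks equal differences; Cpm lies on the line and Dhrs3, Muc20 and Stra6 well below it.

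The tRA effects of the experiments were compared as a difference of differences over all 18 arrays. No cluster passed (0%), while 807 had an unadjusted p under 0.05, and a fit without the block gave none either. The smallest adjusted p among the named genes was that of Stra6. It read 8.10, 8.15 and 9.05 with AGN193109 and 8.19, 8.22 and 9.28 with AGN193109+tRA, nearly alike pair by pair, and its difference of 0.13 there was 0.80 smaller than with DEAB (adjusted p = 0.1). Muc20 had a difference of 0.18 in the AGN193109 experiment, 1.06 smaller (adjusted p = 0.139), and Npr3 one of 1.10, 0.50 smaller (adjusted p = 0.167). Stra6 passed when DEAB+tRA replicate 2 was left out (adjusted p = 0.0161), and Ppbp when AGN193109 replicate 2 was left out (adjusted p = 0.0295). The concentrations of tRA and the inhibitors differed between the experiments, so their shares in any difference cannot be told apart.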

How the data were processed

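Affymetrix Mouse Gene 1.0 ST arrays measured the RNA. The authors normalised them with RMA in Affymetrix Expression Console (version not given in the sources used here) and deposited log2 values. Titles gave groups and replicate numbers, and the form of the short names told which experiment a vehicle array belonged to. Of 35556 transcript clusters, 23410 with a gene symbol were tested. A gene with several clusters was read from the brightest.

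The 9 arrays of the DEAB experiment were fitted in R 4.3.3 by limma 3.58.1, as a mean per group plus a block for replicate number (4 residual degrees of freedom), with p-values adjusted over all 23410 clusters. The titles call the replicates biological, and the series describes 3 independent experiments. After the group means were removed, same-numbered arrays correlated at 0.179 to 0.614 and others at -0.511 to 0.312. Having 3 arrays a group limits the precision (median standard error 0.055). The difference between the experiments was fitted over 18 arrays.

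Named were the 15 largest rises and falls called without overlap, Sprr1a, Ppbp, Ahnak2 and Sox8, up to 4 called members of each of 23 lists (or the member with the smallest p), and 12 retinoid and reference genes (Gapdh had no cluster of its own). Other genes were added after their values were seen. The members and lists were chosen with earlier results of these data known. Alternatives covered the block, arrays, normalization, dim and unnamed clusters, and the variance prior. Plots used matplotlib 3.10.9 (Python 3.11.15).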

Additional observations from a re-analysis of the deposited data

How the results depend on the processing

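The number of clusters called changed with the replicate block, the arrays in the fit, the clusters tested and the variance prior. Against 184 higher and 167 lower with the block, 44 and 32 were called with no replicate block, and 107 and 73 with replicate number as a random block. A fit of the 6 compared arrays gave 52 and 19, adding the clusters that have no symbol 85 and 48, and a trended, robust variance prior in limma 322 and 419. Leaving out dim clusters gave 243 and 290. Falls thus outnumbered rises with dim clusters left out and with the trended, robust prior, whereas rises outnumbered falls in the other fits of all 9 arrays and of the 6 or 18. Leaving out 1 array gave 84 to 155 higher and 42 to 119 lower, and leaving out 1 replicate number, with 2 residual degrees of freedom, 23 to 34 higher and 2 to 4 lower. Some of these fits held fewer arrays or more clusters, while others changed only the model. What caused the changes in the counts was not tested. Of 90 called genes named here, 30 were called without the block, and 8 (Cpm, Itga2, Npr3, Plekhs1, Ppbp, Sorcs2, Sprr1a and Wnt9a) in every fit run. No called gene changed direction. The difference between experiments was called for 0 to 1 cluster when 1 array was left out. Signs turned for 3 genes that were not called: when arrays or replicate numbers were left out, Aqp2 ranged from -0.0013 to 0.2371, Aldh1a2 from -0.0508 to 0.0638 and Aldh1a3 from -0.1242 to 0.0439. The arrays give no read depth, and 9 of the 184 rises and 5 of the 167 falls were under the 30th percentile of level. Whether background limited the differences there was not tested.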
